A study of Homo sapiens with 12 samples.

Results

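DCBLD2, DCBLD1, NRP1 and NRP2 are 4 related single-pass membrane receptors, and their RNA was followed here across 12 libraries of 2 human cell lines. The 4 genes were taken by symbol out of 20307 genes in the deposited table, and the set was put together with earlier results of these data known. Their positions come from GENCODE release 29 on GRCh38. DCBLD2 (ENSG00000057019) lies on the minus strand of chromosome 3, from 98795941 to 98901689. DCBLD1 (ENSG00000164465) lies on the plus strand of chromosome 6, from 117453817 to 117569858. NRP1 (ENSG00000099250) lies on the minus strand of chromosome 10, from 33177492 to 33336262, and NRP2 (ENSG00000118257) on the plus strand of chromosome 2, from 205681990 to 205798133.

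The study sequenced mRNA of the lung carcinoma line H1299 (non-small-cell type) and of THP-1, a monocytic leukaemia line that becomes macrophage-like with the phorbol ester PMA. There were 4 groups of 3 libraries. In THP-1 (genotype WT) the treatment label of the first group was supernatant of H1299-DCBLD2 with PMA, and that of the second was supernatant of H1299-Control with PMA. PMA was given for 24 h and the exposure lasted 48 h, and the design text calls that exposure co-culture, so whether the cells were in contact cannot be told. In H1299 the first group had the genotype DCBLD2 overexpression and the second WT, with no vector, promoter, clone or empty construct named. The groups are called labelled DCBLD2 and labelled control, because the level of DCBLD2 itself went against the H1299 labels. Nothing in the labels states that replicates came from separate cultures, and every p-value therefore reflects only the spread among these libraries, which may be technical. In such bulk libraries, fewer cells of a type and less RNA per cell cannot be told apart.

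Neuropilins bind class 3 semaphorins and members of the vascular endothelial growth factor (VEGF) family through extracellular CUB and coagulation-factor (discoidin) domains. Their short cytoplasmic tails carry no kinase, and they signal as co-receptors beside plexins and VEGF receptors. DCBLD1 and DCBLD2 have the same kind of outer architecture, CUB and discoidin domains with an LCCL domain between them, and DCBLD2 has been tied to growth factor receptor signalling in carcinoma and vascular cells. In mice, NRP1 on tumour-associated macrophages is known for its part in their migration within tumours.

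The 250 bases upstream of the RefSeq start are shown for the 2 DCBLD paralogues and NRP2, the members with an entry in the promoter table (3 of 4 members). Each of them differed in RNA level between the labelled control groups of the cell lines. Capitals mark every match to CCAAT and to GGGCGG on either strand, and overlapping or adjoining matches run together. Each line is written 5′ to 3′ on the strand of its gene, at chr3:98901696-98901945 (minus), chr6:117482424-117482673 (plus) and chr2:205682251-205682500 (plus) of GRCh38.p14. The DCBLD1 and NRP2 windows lie inside the GENCODE spans given above, and the DCBLD2 window lies outside its span.
DCBLD2: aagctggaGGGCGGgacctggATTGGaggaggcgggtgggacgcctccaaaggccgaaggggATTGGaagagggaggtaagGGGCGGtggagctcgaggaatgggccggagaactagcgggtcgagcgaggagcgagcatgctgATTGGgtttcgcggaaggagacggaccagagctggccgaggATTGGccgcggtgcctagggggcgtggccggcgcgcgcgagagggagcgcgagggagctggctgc
DCBLD1: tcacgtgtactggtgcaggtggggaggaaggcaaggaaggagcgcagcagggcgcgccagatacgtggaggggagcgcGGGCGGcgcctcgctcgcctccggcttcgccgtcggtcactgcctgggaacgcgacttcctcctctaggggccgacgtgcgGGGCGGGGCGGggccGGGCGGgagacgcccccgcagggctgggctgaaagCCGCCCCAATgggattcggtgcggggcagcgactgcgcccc
NRP2: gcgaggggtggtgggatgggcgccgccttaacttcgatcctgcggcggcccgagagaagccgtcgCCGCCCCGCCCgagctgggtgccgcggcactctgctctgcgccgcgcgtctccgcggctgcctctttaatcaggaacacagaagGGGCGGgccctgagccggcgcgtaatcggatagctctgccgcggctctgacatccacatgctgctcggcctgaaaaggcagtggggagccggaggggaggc
The DCBLD2 window held 4 matches to CCAAT, a count that 0.874% of 35114 such windows reach, and 32.0% have at least 1. The DCBLD1 window held 1 match to CCAAT and 5 to GGGCGG, a count of GGGCGG that 4.15% of windows reach. The NRP2 window held 3 matches to GGGCGG, which 13.9% reach, and none to CCAAT. GC content was 68.8% for DCBLD2, 74% for DCBLD1 and 70% for NRP2. CACGTG was matched once, in DCBLD1 (6.35% of windows). TGANTCA, TGACGTCA and TATAAA had no match in any of the 3 windows, against 6.57%, 1.65% and 10.7% of all windows. These matches describe letters and not sites in use.

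**Figure D1:**
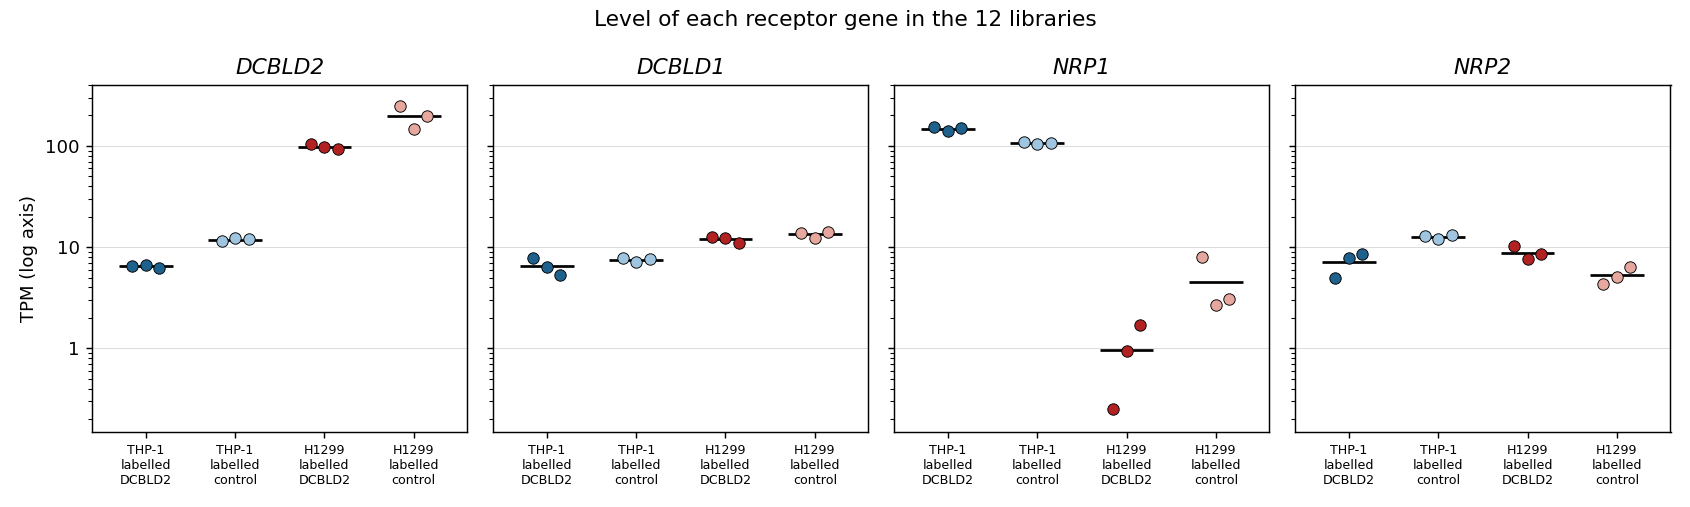
Level of each of the 4 receptor genes in TPM (log axis) in the 12 libraries. Points are single libraries and bars are means of 3. DCBLD2 has 4 groups that do not overlap, with H1299 far above THP-1, and NRP1 has 4 groups that do not overlap, with THP-1 far above H1299.

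DCBLD2 is the gene named in the labels, and in H1299 its level went against them. The libraries labelled DCBLD2 had 105, 98.2 and 92.5 TPM (a level scaled by transcript length and library total), against 247, 148 and 196 TPM in those labelled control. Every library labelled DCBLD2 was below every library labelled control. The means were 98.4 ± 6.03 TPM for labelled DCBLD2 and 197 ± 49.4 TPM for labelled control (SD, n = 3 each). The estimated counts were 4148, 4733 and 4837 reads for labelled DCBLD2 and 15752, 9699 and 13983 for labelled control. On counts the log2 fold change, labelled DCBLD2 over labelled control, was -1.27 ± 0.17 (SE), with a 95% confidence interval of -1.66 to -0.88 and an adjusted p of 0.00284 (quasi-likelihood test of edgeR). Every direction given here is by label, although in H1299 the level of this gene went against the label. With no construct named, whether its reads would count toward this gene cannot be told, and the labels were not tested otherwise.

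Over the 4 receptors in H1299, NRP2 was higher, DCBLD2 and NRP1 were lower and DCBLD1 was not called, where called means an adjusted p under 0.05. Of all 12773 genes tested in H1299, 20.9% were called, 10.3% higher and 10.6% lower. The TPM groups did not overlap for 3 of the 4 receptors, against 37.5% of all genes tested (17.6% higher and 19.9% lower).

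In THP-1, the same gene had 6.53, 6.61 and 6.27 TPM in the labelled DCBLD2 group, against 11.4, 12.2 and 12.01 TPM in the labelled control group. The groups lay well apart, and each was tight. DCBLD2 fell by 0.81 on the log2 scale of counts in labelled DCBLD2 relative to labelled control (SE 0.05, adjusted p = 3.18e-13). These THP-1 cells carry the genotype label WT, so their own DCBLD2 does not check a label. In THP-1, 68.1% of 13120 genes tested were called, 34.5% higher and 33.6% lower, and 64.9% of genes had TPM groups that did not overlap (29.9% higher and 35.0% lower), as 3 of the 4 receptors did. With 1 receptor higher and 3 lower in THP-1, the share of receptors called has to be read against that high background.

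Carcinoma RNA in the THP-1 libraries was measured with keratins. KRT8, a keratin of simple epithelia, stood in THP-1 at 0.114% of its H1299 level for labelled DCBLD2 and at 0.0525% for labelled control. KRT18, its partner keratin, stood at 0.108% for labelled DCBLD2 and 0.0148% for labelled control. DCBLD2 stood at 6.58% for labelled DCBLD2 and 6.04% for labelled control. Summed over 8 epithelial carcinoma markers, THP-1 libraries had 5.97 to 7.28 TPM when labelled DCBLD2 and 2.71 to 3.50 TPM when labelled control. Of that sum, the tight-junction gene CLDN1 gave 3.91 ± 0.116 TPM in labelled DCBLD2 and 1.75 ± 0.127 TPM in labelled control (SD, n = 3 each). The markers KRT19 and EPCAM were at 0 in all 6 THP-1 libraries and were low in H1299 too. KRT19 averaged 0.0420 TPM in H1299 labelled DCBLD2 and 0.177 TPM in H1299 labelled control, and EPCAM 0.653 TPM in H1299 labelled DCBLD2 and 0.444 TPM in H1299 labelled control. The part of carcinoma RNA in the THP-1 DCBLD2 values was not tested.

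ST3GAL6, a sialyltransferase gene on the opposite strand, overlaps DCBLD2 by 25261 bases, of which 235 are exonic in both genes. Since strand handling is not given in the sources used here, reads from the shared bases may go to either gene. ST3GAL6 moved with DCBLD2 in THP-1, at 7.14 ± 0.447 TPM in labelled DCBLD2 and 15.1 ± 1.20 TPM in labelled control (SD, n = 3 each), and its part in the DCBLD2 value was not tested. In H1299 it stood at 3.45 ± 0.935 TPM in labelled DCBLD2 and 3.18 ± 0.775 TPM in labelled control, a small level beside that of DCBLD2.

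DCBLD1, the closest relative of DCBLD2, had the smallest fold changes of the 4 receptors in both lines. THP-1 libraries had 7.84, 6.42 and 5.27 TPM when labelled DCBLD2 and 7.72, 7.13 and 7.65 TPM when labelled control. H1299 libraries had 12.6, 12.4 and 11.1 TPM when labelled DCBLD2 and 13.8, 12.3 and 13.9 TPM when labelled control. The groups overlapped in both lines. In THP-1 the log2 fold change of counts was -0.21 ± 0.08 (SE, adjusted p = 0.0259), a call that was lost with DESeq2 (adjusted p = 0.0756) and when labelled control replicate 1, labelled DCBLD2 replicate 2 or labelled DCBLD2 replicate 3 was left out (adjusted p up to 0.148). In H1299 it was -0.20 ± 0.11 (SE, adjusted p = 0.217), with a 95% confidence interval of -0.45 to 0.05. GOPC, a Golgi-associated gene on the opposite strand that shares 117 exonic bases with DCBLD1, was at 19.2 ± 0.480 TPM in THP-1 labelled DCBLD2 and 18.3 ± 1.10 TPM in THP-1 labelled control, and at 15.9 ± 2.85 TPM in H1299 labelled DCBLD2 and 15.5 ± 3.31 TPM in H1299 labelled control (SD, n = 3 each).

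The balance of the DCBLD pair followed DCBLD2. Within a library, the TPM of DCBLD2 over that of DCBLD1 was 1.02 ± 0.180 in THP-1 labelled DCBLD2 and 1.59 ± 0.117 in THP-1 labelled control. It was 8.19 ± 0.232 in H1299 labelled DCBLD2 and 14.7 ± 2.97 in H1299 labelled control (SD, n = 3 each). The 3 ratios of labelled DCBLD2 lay below the 3 of labelled control in both lines.

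NRP1, the receptor for SEMA3A and for heparin-binding forms of VEGFA, moved in opposite directions in the 2 lines. THP-1 libraries labelled DCBLD2 had 152, 141 and 149.5 TPM, against 108, 105 and 106 TPM in those labelled control. NRP1 was higher in each THP-1 library labelled DCBLD2, with a log2 fold change of counts of 0.61 ± 0.02 (SE) and an adjusted p of 1.05e-18 by edgeR. In THP-1 labelled DCBLD2 it ranked 1017th of 16252 genes with a mean above 0 TPM, and in labelled control 1361st of 16412.

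In H1299, NRP1 was a low-level gene. Libraries labelled DCBLD2 had 0.254, 0.935 and 1.70 TPM, on 8, 25 and 29 estimated reads, against 7.91, 2.68 and 3.09 TPM in those labelled control, on 307, 155 and 181 reads. The groups did not overlap, but the highest library was 6.70 times the lowest within labelled DCBLD2 and 2.95 times within labelled control. The log2 fold change of counts was -3.17 ± 0.39 (SE), with a 95% confidence interval of -4.03 to -2.31 and an adjusted p of 0.00179. It was -2.74 (adjusted p = 0.00165) without labelled control replicate 1. With limma it was -1.45 (adjusted p = 0.0289) on log2(TPM + 1), a scale that understates changes of low genes, and -2.25 (adjusted p = 0.0331) on log2(TPM + 0.1). Fold changes of TPM and of counts also part where the implied transcript length, given below, differs between groups. The part of that length in the NRP1 value was not tested. Endothelial markers were summed over 8 genes because endothelial cells are rich in NRP1, and gave 1.30 to 1.49 TPM in labelled DCBLD2 and 1.21 to 6.55 TPM in labelled control. The library at 6.55 TPM, labelled control replicate 1, was also the one with the highest NRP1, and the part of that sum in the NRP1 value was not tested. The fall without that library is the value of -2.74 given above.

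NRP2, the neuropilin that prefers SEMA3F and VEGFC, also changed in opposite directions, and each change ran against that of NRP1 in the same line. THP-1 libraries had 4.95, 7.72 and 8.60 TPM when labelled DCBLD2, against 12.8, 11.99 and 13.2 TPM when labelled control. Every THP-1 library labelled DCBLD2 was below every one labelled control. The log2 fold change of counts was -1.05 ± 0.07 (SE, adjusted p = 7.49e-13). Within labelled DCBLD2 the highest TPM was 1.74 times the lowest, although the counts were 317, 372 and 259 reads, and within labelled control it was 1.10 times.

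In H1299, libraries labelled DCBLD2 had 10.2, 7.67 and 8.52 TPM of NRP2, against 4.31, 5.09 and 6.37 TPM in those labelled control. Here every library labelled DCBLD2 was above every one labelled control. NRP2 rose by a log2 fold change of 0.50 ± 0.13 (SE, adjusted p = 0.0285), with a 95% confidence interval of 0.20 to 0.80. This call was lost when any H1299 library other than labelled control replicate 2 was left out, with log2 fold changes of 0.43 to 0.56 and adjusted p of 0.0350 to 0.103 over the 6 fits. It was also lost with the replicate number as a block (adjusted p = 0.0733).

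**Figure D2:**
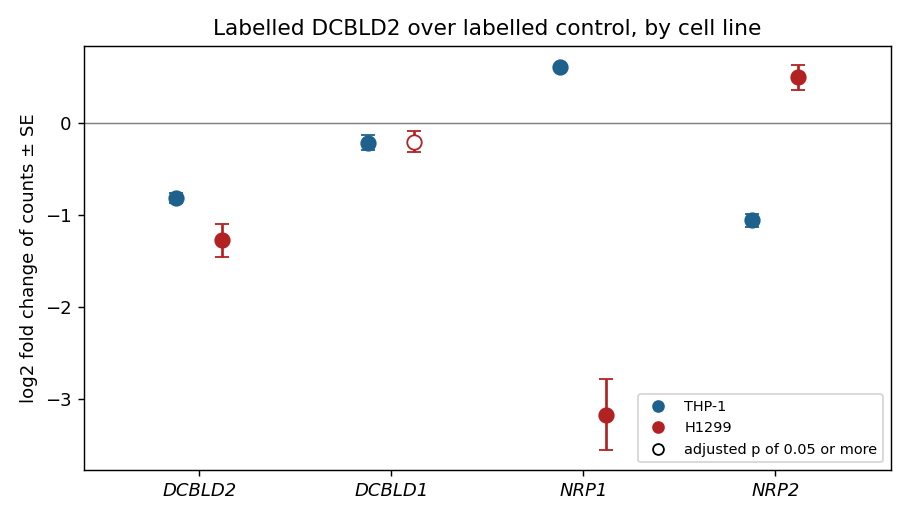
Log2 fold change of counts ± SE, labelled DCBLD2 over labelled control, for the 4 receptors in THP-1 and in H1299, with 3 libraries a group. NRP1 lies at 0.61 in THP-1 and -3.17 in H1299, NRP2 at -1.05 in THP-1 and 0.50 in H1299, and both DCBLD genes lie below 0 in both lines. The open point, DCBLD1 in H1299, was not called.

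The contrast between lines was tested directly, as the THP-1 response minus the H1299 response in 1 fit of the 12 libraries. Of 14244 genes tested, 38.7% were called for such a difference, 19.3% higher and 19.5% lower in THP-1. NRP1 differed by 3.74 ± 0.36 (SE) on the log2 scale, with an adjusted p of 5.64e-06 and a 95% confidence interval of 2.97 to 4.51. NRP2 differed by -1.57 ± 0.14 (SE), with an adjusted p of 3.55e-06 and an interval of -1.87 to -1.26. For DCBLD2 the difference was 0.44 ± 0.20 (SE, adjusted p = 0.0939), with an interval of 0.02 to 0.87, and it passed the threshold without H1299 labelled control replicate 2 (0.65, adjusted p = 0.00204) and without H1299 labelled DCBLD2 replicate 1 (0.58, adjusted p = 0.0370). For DCBLD1 it was -0.03 ± 0.13 (SE, adjusted p = 0.908), with an interval of -0.32 to 0.26. Of the 4 receptors, 1 was called higher, 1 lower and 2 were not called. The fit of 12 libraries holds 1 spread per gene for both lines. Yet the coefficient of variation common to all genes was 1.96% in THP-1 and 13.3% in H1299. With that fit 5056 genes were called in H1299, against 2669 with H1299 fitted alone. Its p-values may therefore be too small where H1299 libraries enter.

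The make-up of the neuropilin pair differed between groups in both lines. NRP1 made up 96.9%, 94.8% and 94.6% of NRP1 plus NRP2 TPM in THP-1 libraries labelled DCBLD2, and 89.4%, 89.8% and 88.9% in those labelled control. It made up 2.43%, 10.9% and 16.7% in H1299 libraries labelled DCBLD2, and 64.7%, 34.5% and 32.7% in those labelled control. The 2 groups of a line did not overlap, and the direction was opposite in the 2 lines. The sum itself was 155 ± 5.20 TPM in THP-1 labelled DCBLD2 and 119 ± 1.90 TPM in THP-1 labelled control. In H1299 it was 9.76 ± 1.01 TPM in labelled DCBLD2 and 9.82 ± 2.24 TPM in labelled control (SD, n = 3 each), a difference smaller than the spread between replicates.

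Between the lines, DCBLD2 was the H1299 gene and NRP1 the THP-1 gene of the set. THP-1 labelled control over H1299 labelled control gave a log2 fold change of counts of -3.67 ± 0.15 (SE, adjusted p = 6.02e-12) for DCBLD2 and 4.84 ± 0.20 (SE, adjusted p = 8.91e-12) for NRP1. For NRP2 it was 1.65 ± 0.10 (SE, adjusted p = 7.02e-10), and for DCBLD1 -0.58 ± 0.09 (SE, adjusted p = 3.95e-05). Of the 4 receptors, 2 were called higher and 2 lower in THP-1, against 85.9% of 14244 genes called (42.3% higher and 43.6% lower), and all 4 had TPM groups that did not overlap, against 85.2% (36.1% higher and 49.2% lower). This comparison uses the control libraries of the comparisons above. Cell line, PMA and the exposure of THP-1 to H1299 supernatant or cells cannot be told apart in it. Between the labelled DCBLD2 groups, mean NRP2 went the other way, at 7.09 TPM in THP-1 and 8.80 TPM in H1299, with overlapping libraries. The means of DCBLD2, DCBLD1 and NRP1 kept their direction there. By mean TPM, NRP1 stood first in both THP-1 groups and DCBLD2 first in both H1299 groups. Below NRP1 in THP-1 labelled DCBLD2, NRP2 at 7.09, DCBLD1 at 6.51 and DCBLD2 at 6.47 TPM did not differ beyond their spread. In THP-1 labelled control, NRP2 at 12.7 and DCBLD2 at 11.9 TPM overlapped, with DCBLD1 below both at 7.50 TPM. In H1299 labelled DCBLD2 the order was DCBLD2, DCBLD1 at 12.02, NRP2 at 8.80 and NRP1 at 0.964 TPM, without overlap. In H1299 labelled control, DCBLD1 at 13.3 TPM was second, and NRP2 at 5.26 and NRP1 at 4.56 TPM overlapped.

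**Figure D3:**
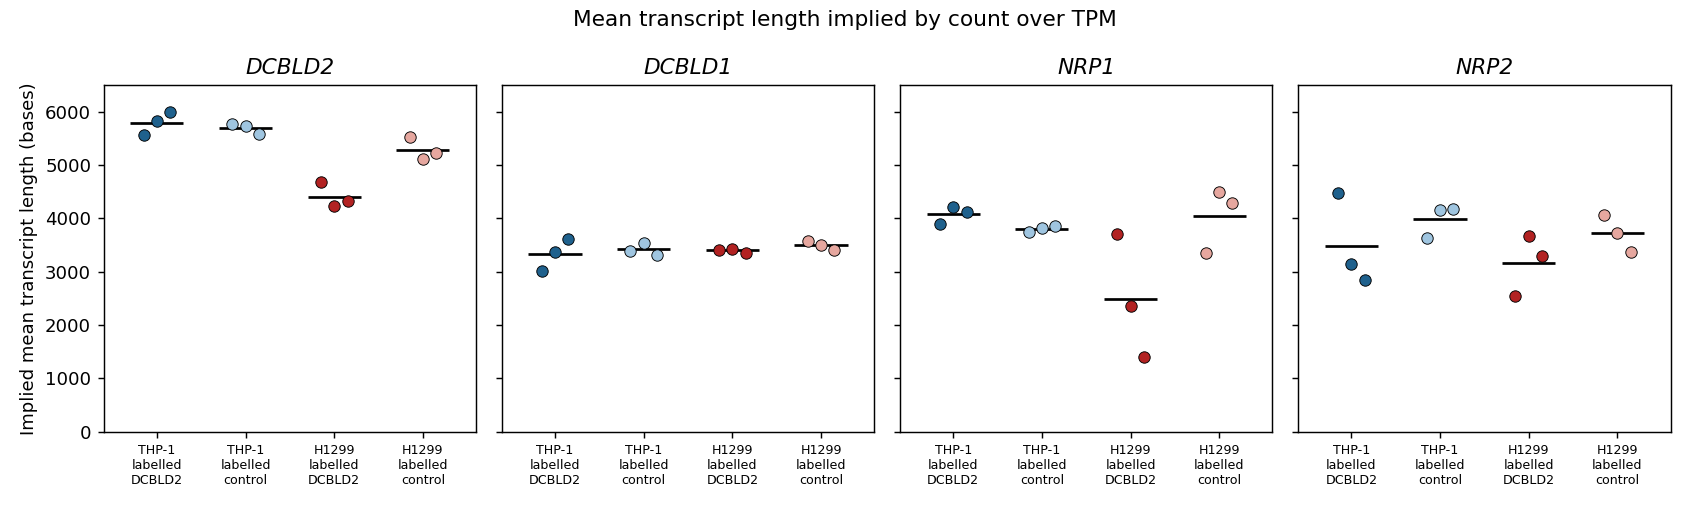
Mean transcript length in bases implied by estimated count over TPM, for each receptor and library. Points are single libraries and bars are means of 3. DCBLD2 is shorter in the 3 H1299 libraries labelled DCBLD2 (4231 to 4672 bases) than in the 3 labelled control (5114 to 5522 bases), while in THP-1 its groups overlap.

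Because the table holds both counts and TPM, each receptor's mean transcript length could be read from their ratio. Scaled on 424 to 488 genes a library with 1 annotated transcript, the ratio gave that length within 2% for 63.0% to 64.8% of these genes. DCBLD2 has coding transcripts of 554, 3959 and 6122 bases in the annotation. Its implied length in H1299 was 4672, 4231 and 4316 bases in labelled DCBLD2, against 5522, 5114 and 5226 bases in labelled control. The groups did not overlap, as was so, in the shorter direction, for 6.07% of 12174 genes. The log2 length ratio by limma was -0.26 ± 0.05 (SE, unadjusted p = 0.00339, adjusted p = 0.265), which missed the threshold, as all genes but 1 did (0.00821% called, and 1013 at an unadjusted p under 0.05). A shorter length leaves a smaller fall in TPM than in counts, and limma on log2(TPM + 1) gave -0.96 for DCBLD2 in H1299, against -1.27 on counts.

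In THP-1, DCBLD2 had 5562, 5815 and 5990 bases in labelled DCBLD2 and 5765, 5724 and 5577 bases in labelled control, and the groups overlapped. NRP1 in THP-1 had 3899, 4221 and 4119 bases in labelled DCBLD2, each above the 3738, 3822 and 3853 bases in labelled control, a log2 ratio of 0.10 ± 0.03 (SE, adjusted p = 0.403). Groups that did not overlap, in the longer direction, were seen for 6.70% of 12375 genes in THP-1, and in the shorter direction for 8.43%. NRP1 in H1299 had 3708, 2347 and 1405 bases in labelled DCBLD2 and 3356, 4502 and 4289 bases in labelled control, and was not tested because 1 library held 8 reads. NRP2 varied most among replicates with ample reads, at 4474, 3149 and 2836 bases in THP-1 labelled DCBLD2 and 3625, 4150 and 4167 bases in THP-1 labelled control. For NRP2 and DCBLD1 the log2 length ratios were -0.22 ± 0.19 and -0.04 ± 0.07 (SE) in THP-1 and -0.24 ± 0.15 and -0.04 ± 0.02 (SE) in H1299, and the lowest adjusted p of these 4 was 0.826.

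**Figure D4:**
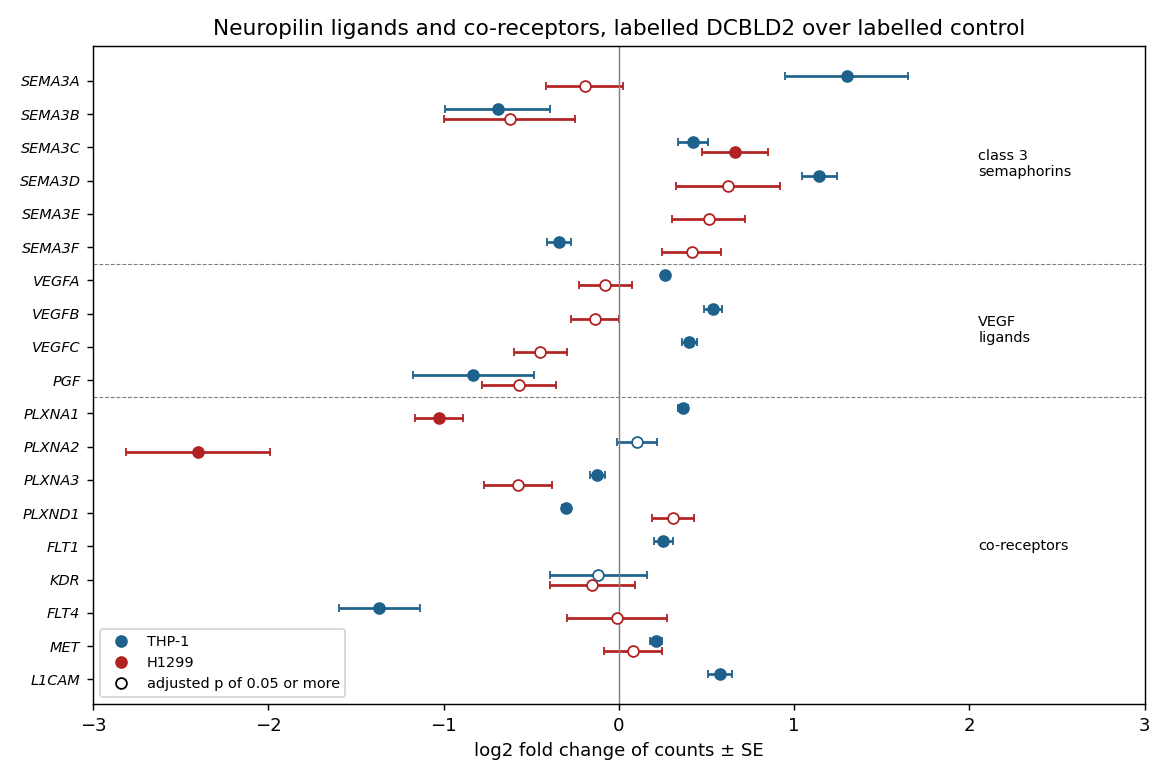
Log2 fold change of counts ± SE, labelled DCBLD2 over labelled control, for the class 3 semaphorins, VEGF ligands and co-receptors with enough reads, in THP-1 and in H1299. Filled points were called and open points were not. Most THP-1 points are filled, and in H1299 only SEMA3C, PLXNA1 and PLXNA2 are.

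The ligands of the neuropilins were called mostly in THP-1, where most genes were. Of 5 class 3 semaphorins tested there, 3 rose and 2 fell, with a median log2 fold change of 0.42 against 0.00 for all genes, of which 34.5% rose and 33.6% fell. SEMA3C was at 6.29 ± 0.165 TPM in labelled DCBLD2 and 5.16 ± 0.273 TPM in labelled control (log2 fold change 0.42, adjusted p = 0.000108). SEMA3D was at 2.96 ± 0.178 TPM in labelled DCBLD2 and 1.39 ± 0.146 TPM in labelled control (log2 fold change 1.14), and SEMA3A at 0.586 ± 0.0587 TPM in labelled DCBLD2 and 0.151 ± 0.0586 TPM in labelled control (1.30). SEMA3F, the preferred partner of NRP2, fell with it, to 9.24 ± 0.402 TPM in labelled DCBLD2 against 12.2 ± 0.503 TPM in labelled control (-0.34). Of 4 VEGF ligands tested, 3 rose and 1 fell, and VEGFA, the main ligand of NRP1, was at 417 ± 7.10 TPM in labelled DCBLD2 and 375 ± 3.47 TPM in labelled control (0.26, adjusted p = 2.2e-13). VEGFB rose by 0.54 and VEGFC by 0.40, and PGF, a low gene, fell by 0.83. With DESeq2 in THP-1, 3 VEGF ligands were called higher and 0 lower, so the fall of PGF was not called. DESeq2 called 3 class 3 semaphorins higher and 1 lower there. In H1299, where 20.9% of all genes were called, 1 of 6 class 3 semaphorins was, again SEMA3C, at 26.0 ± 4.36 TPM in labelled DCBLD2 and 17.0 ± 4.62 TPM in labelled control (0.66, adjusted p = 0.0348). DESeq2 also called 1 of these 6 in H1299, and limma on log2(TPM + 1) called 0. None of the 4 VEGF ligands was called in H1299 by edgeR, where 2 had an unadjusted p under 0.05 and DESeq2 called 1. PGF had a log2 fold change of -0.57 ± 0.21 (SE) and VEGFC one of -0.45 ± 0.15 (SE).

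Among co-receptors, PLXNA1 moved in opposite directions in the 2 lines, as NRP1 did. PLXNA1, which transmits SEMA3 signals, was at 22.5 ± 0.772 TPM in THP-1 labelled DCBLD2 and 17.8 ± 0.289 TPM in THP-1 labelled control, a log2 fold change of 0.37 (adjusted p = 2.51e-11). It was at 28.0 ± 2.25 TPM in H1299 labelled DCBLD2 and 57.6 ± 10.4 TPM in H1299 labelled control, a log2 fold change of -1.03 (adjusted p = 0.00263). The difference of its responses, THP-1 minus H1299, was 1.38 ± 0.14 (SE, adjusted p = 9.16e-06). PLXND1, the receptor of SEMA3E, fell by 0.30 in THP-1, where L1CAM, an adhesion partner of NRP1, rose by 0.58 and the growth factor receptor MET by 0.21. In all, 4 of 9 co-receptors tested rose and 3 fell in THP-1 (median 0.10, with 34.5% of all genes higher and 33.6% lower). In H1299, 0 rose and 2 of 7 fell (median -0.15, with 10.3% of all genes higher and 10.6% lower), the other one being PLXNA2, at 0.0467 ± 0.0250 TPM in labelled DCBLD2 and 0.235 ± 0.0435 TPM in labelled control. Of 4 plexins of the B and C classes, 1 rose and 1 fell in THP-1 (PLXNB2 by 0.13, and PLXNC1 at -0.54), and 0 rose and 2 fell in H1299 (PLXNB1 at -0.75 and PLXNB2 at -0.53).

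Of 6 proteins that bind or traffic neuropilins, 3 rose and 2 fell in THP-1, where 68.1% of all genes were called. GIPC1, which holds the tail of NRP1 through its PDZ domain, rose by 0.51 and the endocytic motor MYO6 by 0.38, while the ubiquitin ligase CBL was at -0.21 and the early-endosome GTPase RAB5A at -0.31 (log2 fold changes of counts). In H1299 none of the 6 was called by edgeR, 3 had an unadjusted p under 0.05 and DESeq2 called 1, with GIPC1 at -0.33 ± 0.11 and the scaffold SDCBP at 0.28 ± 0.12 (SE). Of 11 partners of DCBLD proteins and steps between EGFR and AKT, 4 rose and 5 fell in THP-1 (median -0.04) and 1 rose and 2 fell in H1299 (median -0.01), against 68.1% of all genes called in THP-1 and 20.9% in H1299. CRKL, an adaptor that binds tyrosine-phosphorylated DCBLD2, was at -0.57 in THP-1, where AKT1 rose by 0.57 and AKT2 by 0.26 and the phosphatase PTPN1 was at -0.24. In H1299 the kinase ABL2 rose by 0.74, and SRC at -0.44 and AKT2 at -0.36 fell.

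Of 16 genes that share a CUB, discoidin or LCCL domain with the 4 receptors and were tested in THP-1, 3 rose and 7 fell (median -0.22), where 34.5% of all genes rose and 33.6% fell. Of 15 tested in H1299, 1 rose and 3 fell (median -0.19, against 0.00 for all genes), where 10.3% of all genes rose and 10.6% fell. MFGE8, which bridges apoptotic cells to phagocytes, was at 44.7 ± 1.10 TPM in THP-1 labelled DCBLD2 and 92.2 ± 1.33 TPM in THP-1 labelled control, and at 31.3 ± 2.47 TPM in H1299 labelled DCBLD2 and 41.3 ± 2.22 TPM in H1299 labelled control (log2 fold changes of -1.04 and -0.43). The collagen receptor DDR1 was at -0.71 in THP-1 and -0.65 in H1299. BMP1, a procollagen protease, was at -0.41 and the CUB-domain membrane protein CDCP1 at -0.81 in THP-1. In H1299, COCH, an LCCL protein, was at -0.53, and PCOLCE2, a procollagen protease enhancer, rose by 0.63.

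The genes whose profile over the 12 libraries was most like each receptor's were found among 12431 genes, by the root mean square difference of centred log2(TPM + 1). For DCBLD2 they were TGFA (0.23), DNMBP (0.26) and TDRD9 (0.27), where the median gene was at 1.83. TGFA had 0.478 TPM in THP-1 labelled DCBLD2, 0.756 in THP-1 labelled control, 15.9 in H1299 labelled DCBLD2 and 28.5 in H1299 labelled control. For NRP1 they were STAT6 (0.34), CAPG (0.41) and TSC22D1 (0.45), against a median of 2.92. STAT6 had 186 TPM in both THP-1 groups, 1.27 TPM in H1299 labelled DCBLD2 and 6.79 TPM in H1299 labelled control. Its means were thus ordered as those of NRP1 in H1299 and lay level in THP-1. For NRP2 they were PYGL (0.19), FAM76A (0.20) and EPHX2 (0.21), against a median of 0.77. PYGL had 42.3 TPM in THP-1 labelled DCBLD2, 67.7 in THP-1 labelled control, 48.2 in H1299 labelled DCBLD2 and 35.4 in H1299 labelled control, so its means were ordered as those of NRP2 in both lines. For DCBLD1 they were ZSWIM1 (0.11), DIP2A (0.11) and RP9 (0.12), against a median of 0.57. The 12 libraries of such a profile share 2 cell lines, and the gap between lines sets much of its shape for DCBLD2, NRP1 and DCBLD1.

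Libraries held 18606739 to 26787853 estimated reads in THP-1 and 14578887 to 23388187 in H1299. The coefficient of variation common to all genes was 1.96% between THP-1 replicates and 13.3% between H1299 replicates, so the same fold change reaches a much smaller p in THP-1. Summed over 10 myeloid markers, THP-1 libraries had 9745 to 9929 TPM when labelled DCBLD2 and 8191 to 8241 TPM when labelled control. In H1299 the same sum was 199 to 202 TPM in labelled DCBLD2 and 139 to 142 TPM in labelled control, mainly CD68, with the leukocyte antigen PTPRC at 0 in all 6. The epithelial sum in H1299 was 1222 to 1636 TPM in labelled DCBLD2 and 1885 to 2051 TPM in labelled control, with CDH1 at 0 in all 6. The endothelial sum in THP-1 was 205 to 216 TPM in labelled DCBLD2 and 322 to 324 TPM in labelled control. It was mainly PECAM1, with means of 145 TPM in labelled DCBLD2 and 168 TPM in labelled control, and TIE1, with 64.5 and 149 TPM. CDH5 averaged 0.081 TPM in THP-1 labelled DCBLD2 and 0 TPM in THP-1 labelled control. The 5 fibroblast markers summed to 10.9 to 11.5 TPM in THP-1 labelled DCBLD2 and 9.09 to 11.4 TPM in THP-1 labelled control. In H1299 these 5 summed to 0.405 to 0.714 TPM in labelled DCBLD2 and 0.339 to 1.12 TPM in labelled control. The part of these sums in the receptor results was not tested.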

How the data were processed

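Libraries were made from Trizol-extracted RNA by mRNA enrichment, fragmentation and a NEBNext Ultra RNA kit, per the labels' protocols. The submitters' processing notes name fastp (0.18.0), Bowtie2 (2.2.8), HISAT2, StringTie (1.3.1), RSEM and the build hg38. Neither strand handling nor an annotation release is given in the sources used here. For each of 20307 genes, 605 of them without a symbol, the authors deposited a TPM value and an estimated count per library, and these counts were not normalized.

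Estimated counts were rounded and tested with edgeR 4.0.16 (R 4.3.3, quasi-likelihood, TMM, filterByExpr minimum of 10 counts, Benjamini-Hochberg over all genes tested, adjusted p under 0.05), two-sided, in 1 fit of 6 libraries per cell line. A fit of all 12, with 1 spread per gene for both lines, gave the contrasts between lines. TPM means ± SD describe levels. Count over TPM was tested with limma 3.58.1 on genes with at least 10 counts in each library, and turned into bases on genes with 1 transcript of over 2000 bases and at least 30 counts. GENCODE 29 held 98.9% of the gene identifiers, and promoters come from RefSeq (GRCh38.p14). The edgeR and limma steps were tested on simulated data.

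The 4 receptors and the gene lists were chosen with earlier results of these data known. Beside the 4, genes named are, per list and line, the called members with the smallest p, at most 4 (or 2 uncalled ones), the 3 most similar profiles with a mean of at least 1 TPM, opposite-strand neighbours and markers. Replicate pairs of a group differed by more than sampling noise (chi-square per gene 1.55 to 2.30 in THP-1 and 10.8 to 36.6 in H1299), and all were counted. Alternatives were the replicate block, RLE size factors in edgeR, DESeq2 1.42.0, robust spread, no filter on counts, a minimum mean of 10 counts, limma on log2(TPM + 1) and log2(TPM + 0.1), 1 fit of all samples, and leaving out each sample.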

Additional observations from a re-analysis of the deposited data

Results flagged for a closer look

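NRP1 responded differently in the 2 cell lines: the THP-1 response minus the H1299 response was 3.74 on the log2 scale (adjusted p = 5.64e-06, edgeR), with every labelled DCBLD2 library above labelled control in THP-1 and below it in H1299. NRP2 differed the other way, by -1.57 (adjusted p = 3.55e-06), with every labelled DCBLD2 library below labelled control in THP-1 and above it in H1299. Both directions rest on the H1299 labels, and the level of DCBLD2 in H1299 went against these labels, for a reason that was not tested.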

How the results depend on the processing

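Of 347 alternative values for the receptors, 322 kept their direction and side of the threshold, and 12 of the 16 expression results of the receptors did so in every alternative. Of the 347, 284 were expression values, and the rest were implied lengths, which were uncalled throughout. The 284 include line comparisons refitted without a labelled DCBLD2 library. Such libraries have no weight in that contrast, so these values were nearly fixed in advance. Replicate numbers did not pair the samples (correlations of same-numbered deviations 0.0297 to 0.0568 in THP-1 and -0.283 to -0.116 in H1299). Between different numbers the correlations ran from -0.0777 to 0.0301 in THP-1 and from -0.159 to 0.359 in H1299. A block by differently numbered pairs was not fitted. The replicate block changed 1 of 23 receptor values, NRP2 in H1299 (0.50, adjusted p = 0.0733), and left 0 genes called for implied length in either line. Genes called in H1299 were 5056 with all 12 samples in 1 fit and 514 to 3158 with each sample left out (514, 1374 and 1649 when replicate 2 of labelled DCBLD2, replicate 1 of labelled DCBLD2 or replicate 3 of labelled control was left out). In THP-1, 4531 genes were called with the spread of H1299, an alternative chosen after seeing the data. DCBLD1 in THP-1 lost its call with DESeq2 (-0.22), limma on log2(TPM + 1) (-0.19) and log2(TPM + 0.1) (-0.22), all 12 samples (-0.22) and the spread of H1299 (-0.22), with adjusted p of 0.0756 to 0.336. With each sample left out, values ran from -0.29 to -0.14 for DCBLD1 in THP-1, 0.43 to 0.56 for NRP2 in H1299, -3.44 to -2.74 for NRP1 in H1299 and -1.45 to -1.05 for DCBLD2 in H1299. For differences between lines they ran from 0.30 to 0.65 for DCBLD2 and -0.12 to 0.055 for DCBLD1, which changed sign 7 times and was never called. Genes called for implied length numbered 36 in THP-1 at a minimum of 50 counts, and 0 to 2 in THP-1 and 0 to 3 in H1299 with each sample left out. The log2 length ratio ran from -0.10 to 0.026 for DCBLD1 and -0.0033 to 0.049 for DCBLD2 in THP-1, and for NRP2 from -0.42 to -0.085 in THP-1 and -0.35 to -0.096 in H1299. NRP1 in H1299 was -1.45 and -2.25 with limma on log2(TPM + 1) and log2(TPM + 0.1). The 8 to 29 reads of NRP1 in H1299 labelled DCBLD2 limit its fold change. Beyond what the number of samples left in a fit accounts for, the cause of these shifts was not tested.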
